A study of Homo sapiens with 12 samples.

Results

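The comparison set HepaRG cells given palmitate together with BMS-309403 against untreated HepaRG cells, across all expressed genes. A gene entered when it reached at least 1 FPKM (fragments scaled to gene length and library size; the library sizes behind the deposited values followed a median-of-ratios factor and were 0.888 to 1.14 times the reads in the 9 libraries used here) in at least 3 of the 6 libraries, and 11157 of the 58735 annotated genes did. HepaRG is an established human hepatic cell line, labelled wild type. The PA+BMS group had 50 µM BMS-309403 for 24 h together with 400 µM deuterium-labelled palmitate for 4 h (3 libraries), and the control group was left untreated (3 libraries). A PA group, given the same palmitate for 4 h without the compound (3 libraries), is used where a difference from palmitate alone was tested. No vehicle is named for either agent, and no group received BMS-309403 without palmitate. The effects of both agents cannot be told apart in the comparison with control, nor can the compound be told apart from its vehicle or its longer exposure in the comparison with PA.

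Palmitate is a saturated fatty acid that cells bind, activate to its coenzyme A ester and then burn, store as triglyceride or build into membranes. An excess of it in membranes disturbs the endoplasmic reticulum and engages stress kinases. One of the resulting programmes is the integrated stress response, in which phosphorylation of eIF2-alpha slows general translation while the transcription factors ATF4, CHOP and ATF3 induce genes of amino acid supply and cell survival. BMS-309403 is a small molecule that occupies the lipid pocket of FABP4, the fatty acid-binding protein of adipocytes and macrophages.

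The libraries held between 16059128 and 19971190 reads. Mature hepatocyte genes were nearly absent: 25 of 28 hepatocyte markers lay under 1 FPKM in all 6 libraries, and 10 of them, including ALB (albumin) and APOB, had no read. The 3 that were tested were CPS1 of the urea cycle, HPD of tyrosine breakdown and the transcription factor CEBPA; HPD fell by 0.49 (adjusted p = 0.0434), a call that was lost with any library left out, and the others did not pass. The labelled hepatic identity therefore rested on few of its defining genes. PA+BMS replicate 3 stood apart from its group. Its reads differed from those of replicates 1 and 2 by a chi-square per gene of 83.0 and 79.9, against 4.02 between those 2, and control replicate 1 differed from the other controls by 30.3 and 27.2, against 9.62 between them. The plot of library differences by gene GC content shows this axis: GC content and gene length together accounted for 10.3% of the variance of the log2 changes, for 2.79% without PA+BMS replicate 3, and for 39.7% of the difference of that library from replicates 1 and 2. Most counts and some leading changes are given with and without it. For the other single changes, several leading ones among them, values without it are not given. Whether the replicates were separate cultures is not stated in the labels. The p-values therefore measure the spread between these libraries, which may be technical.

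**Figure D1:**
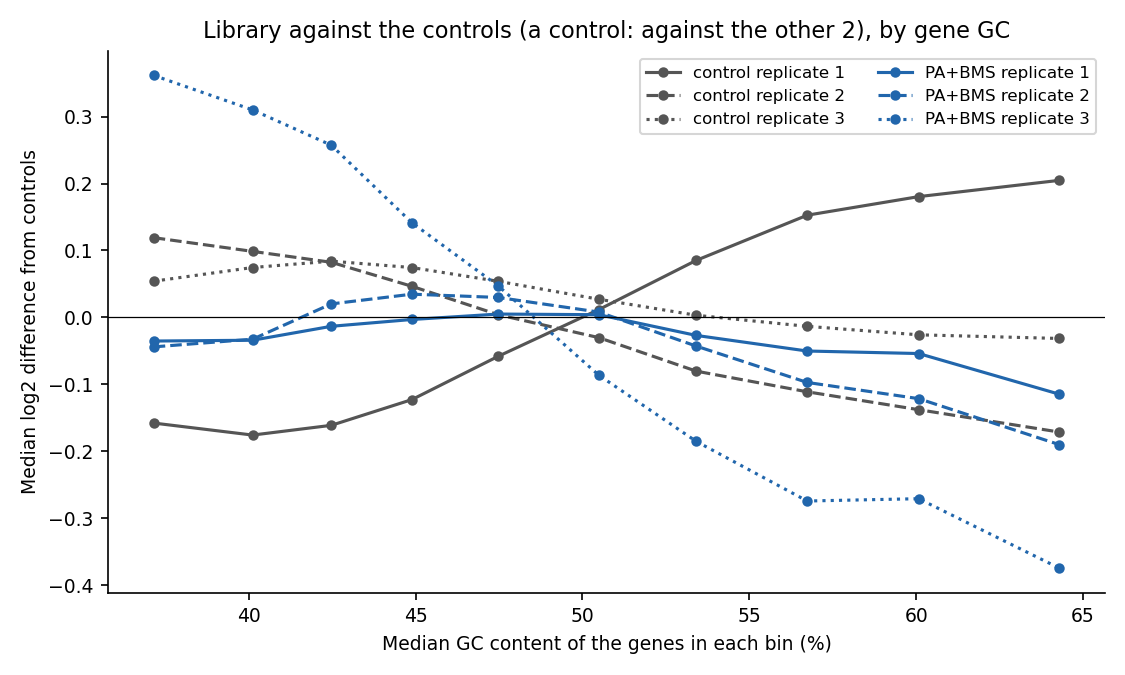
Median log2 difference of each PA+BMS library from the control mean, and of each control library from the mean of the other 2, on the log2(FPKM + 1) scale (vertical axis), in 10 equal bins of gene GC content in percent (horizontal axis); each line is a library. PA+BMS replicate 3 runs from 0.36 in the lowest bin to -0.37 in the highest, and PA+BMS replicates 1 and 2 from -0.04 and -0.04 to -0.11 and -0.19.

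With limma on log2(FPKM + 1) and Benjamini-Hochberg adjustment, 1230 genes were called at an adjusted p of 0.05, which is 11.0% of those tested. Of these, 483 rose (4.33%) and 747 fell (6.70%), and 175 changed at least 2-fold, 67 upward and 108 downward. Without PA+BMS replicate 3, 639 rose (5.73%) and 965 fell (8.65%), and 1180 of the 1230 were among them. The median change of all genes was -0.02. The 3 PA+BMS libraries lay wholly above or wholly below the 3 controls for 4071 genes, or 36.5%, with 16.8% above and 19.7% below. The split between rises and falls depended on the scaling: with library totals set equal, 711 rose and 533 fell, and the median of all genes moved to 0.06.

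The 12 largest rises were led by stress-induced and immediate early regulators. ATF3, a stress-induced transcription factor (ENSG00000162772, chromosome 1, 212565334 to 212620777 on GRCh38), stood at 10.03, 4.88 and 3.57 FPKM in the controls and at 66.7, 69.9 and 46.3 FPKM in PA+BMS. Every PA+BMS library lay above every control, and its log2 change was 3.19 (SE 0.31, limma adjusted p = 0.00171; 3.38 without PA+BMS replicate 3). JUN, a subunit of the AP-1 factor (ENSG00000177606, chromosome 1, 58780788 to 58784327), went from 5.72, 6.61 and 6.41 FPKM to 54.1, 55.4 and 48.1 FPKM. Replicates were close within both groups, and the log2 change of JUN was 2.89 (SE 0.11, limma adjusted p = 4.97e-05; 2.95 without PA+BMS replicate 3). EGR1, a zinc finger factor of the growth factor response, had 5.94, 3.93 and 2.60 FPKM in the controls and 25.3, 25.2 and 23.3 FPKM in PA+BMS (log2 change 2.36, SE 0.22, limma adjusted p = 0.00133). KLF2, a Krüppel-like factor, rose by 1.61 on the log2 scale and ERRFI1, a feedback inhibitor of the EGF receptor, by 1.62. CXCL8, the neutrophil chemokine, stood at 0.294, 0.174 and 0.290 FPKM in the controls and at 2.95, 2.77 and 2.86 FPKM in PA+BMS, with a log2 change of 1.62 (SE 0.11). CXCL8, LRFN1, ACACB, PPARA, MT1X, ISG20, CSF1R and CDH5 passed the filter through 1 group alone, so the direction of their change was fixed by the filter and their tests carry no weight of their own.

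ANGPTL4 was the lipid gene among the leading rises. It encodes a secreted inhibitor of lipoprotein lipase that fatty acids induce through PPAR receptors (ENSG00000167772, chromosome 19, 8363289 to 8374373). Its level was 7.39, 7.56 and 7.04 FPKM in the controls and 55.0, 51.0 and 36.6 FPKM in PA+BMS (log2 change 2.52, SE 0.15, limma adjusted p = 0.000593; 2.70 without PA+BMS replicate 3). With palmitate alone it stood at 99.4, 115 and 101 FPKM, above every PA+BMS library, and PA+BMS lay below PA by a log2 change of -1.15 (SE 0.16, limma adjusted p = 0.00285). After that library trend with GC content and length was removed, PA+BMS differed from PA by -0.52 (adjusted p = 0.00885). ANGPTL4 overlaps the antisense gene RAB11B-AS1, and the strand setting of the counting is not given, so reads of the pair cannot be told apart.

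**Figure D2:**
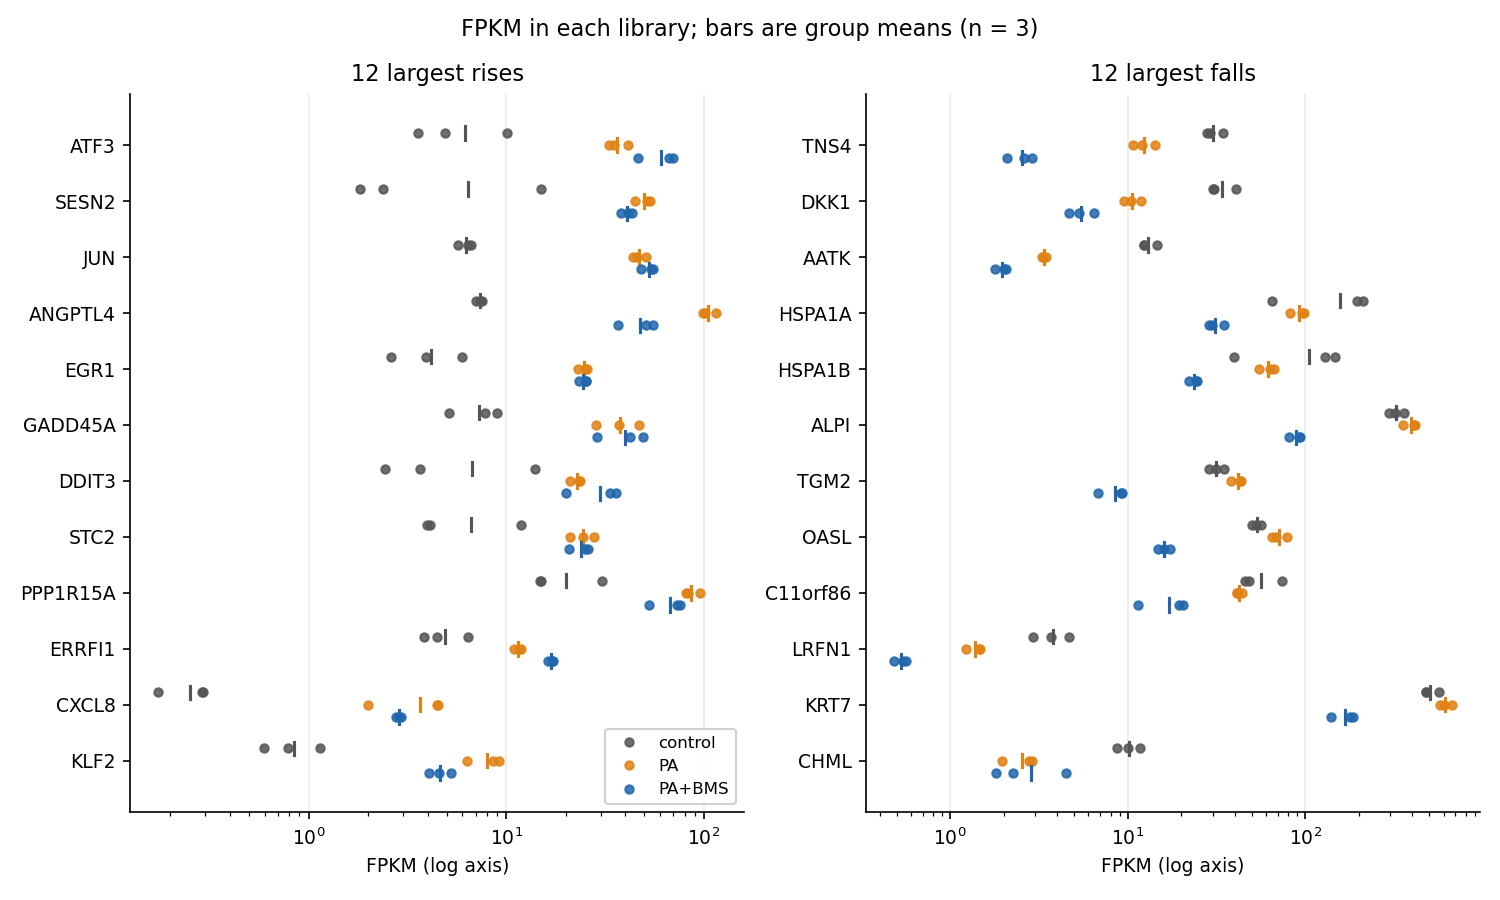
FPKM on a log axis for the 12 genes with the largest rise (left) and the 12 with the largest fall (right) in PA+BMS against control; each point is a library, vertical bars are group means (n = 3), and the PA group is shown beside them. For every gene in both panels the control and PA+BMS points do not overlap, which the choice of genes required.

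All 12 leading falls were at least 1.59 on the log2 scale. TNS4, a tensin family protein of focal adhesions (ENSG00000131746, chromosome 17, 40475828 to 40501597), stood at 27.8, 28.9 and 34.5 FPKM in the controls and at 2.08, 2.61 and 2.90 FPKM in PA+BMS, a log2 change of -3.15 (SE 0.13, limma adjusted p = 7.04e-05; -3.23 without PA+BMS replicate 3). It was the steepest of the leading falls. With palmitate alone TNS4 had 14.3, 12.1 and 10.7 FPKM, and PA+BMS was lower than PA by a log2 change of -1.92 (SE 0.14, adjusted p = 0.00127). With the GC and length trend removed this difference was -1.51. DKK1, a secreted Wnt inhibitor (ENSG00000107984, chromosome 10, 52314296 to 52318042), went from 40.4, 30.0 and 30.7 FPKM to 5.30, 6.47 and 4.66 FPKM (log2 change -2.42, SE 0.15, limma adjusted p = 0.000607). Its PA level of 10.4, 11.8 and 9.53 FPKM lay between both groups, and PA+BMS was again below PA (-0.84, SE 0.13, adjusted p = 0.00332). With the trend removed the difference of DKK1 from PA was -1.07.

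TGM2 and ALPI were high in both control and PA cells. TGM2, which cross-links proteins, stood at 34.6, 28.7 and 31.4 FPKM in control, 43.6, 42.8 and 38.4 FPKM in PA and 9.33, 9.13 and 6.79 FPKM in PA+BMS. Its log2 change was -1.80 (SE 0.14, limma adjusted p = 0.000992) against control and -2.19 (SE 0.13, adjusted p = 0.000456) against PA. ALPI, an alkaline phosphatase, stood at 361, 295 and 319 FPKM in control, 415, 411 and 353 FPKM in PA and 93.8, 91.7 and 81.1 FPKM in PA+BMS. It fell by 1.86 against control and by 2.13 against PA on the log2 scale (SE 0.13 and 0.12). Its near-identical neighbour ALPP, singled out after its values were seen, fell from 504, 380 and 438 FPKM to 209, 201 and 188 FPKM, and how reads were divided between these copies is uncertain. AATK, a membrane-anchored kinase, LRFN1, a synaptic adhesion protein, CHML, a Rab escort protein, and C11orf86 were also among the leading falls. Their log2 changes were -2.25, -1.62, -1.59 and -1.66. DDIT3, AATK, KRT7, CHML, TGM2 and ANGPTL4, 6 of these 24 genes, overlap another gene of at least 1 FPKM, so reads counted for either are uncertain. Of the 163 genes the naming rule reached, 45 overlap such a gene, among them ISG15, IFIT1 and ACSL5, and so do CLDN7, IFIT2 and IFIT3.

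All 24 leading genes were also called without PA+BMS replicate 3, without control replicate 1, and after removal of the GC and length trend. These fits reuse the libraries from which the genes were chosen, so they are no independent check. Leaving out PA+BMS replicate 3 moved their log2 changes by a median of 0.075 and at most by 0.285, for CHML. In the 6 fits that each left out a library, 19 of the 24 were called throughout, and SESN2, DDIT3, STC2, HSPA1A and HSPA1B were not.

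More than 1 in 2 genes of the integrated stress response rose. Of 28 members tested, 15 rose and 0 fell, which is 53.6% against 4.33% of all genes, and their median log2 change was 1.02 against -0.02. Without PA+BMS replicate 3, 17 rose, with a median of 0.93. The count depended on which libraries were used. It was 4 without control replicate 2, 3 without control replicate 3 and 9 without PA+BMS replicate 2. It was 17 without control replicate 1 and 24 with both control replicate 1 and PA+BMS replicate 3 left out. Rises over all genes, 483 with all libraries, numbered 134, 98, 154, 247 and 1124 in these fits, in the same order. Where the count dropped, rises over all genes dropped too, and without control replicate 1 they dropped while the count did not. With no filter on low values 4 of the 28 members rose. Control replicate 1 was the highest control for ATF3, ATF4, DDIT3, SESN2, TRIB3, CHAC1 and PPP1R15A. DDIT3, which encodes CHOP, had 14.0, 3.68 and 2.43 FPKM in the controls and 35.9, 33.7 and 20.0 FPKM in PA+BMS (log2 change 2.27, SE 0.50, limma adjusted p = 0.0293; adjusted p up to 0.110 with a library left out). Without PA+BMS replicate 3 the change of DDIT3 was 2.52. SESN2, a stress-induced inhibitor of mTORC1, had 14.9, 2.37 and 1.82 FPKM against 43.5, 41.3 and 38.2 FPKM (log2 change 2.97, SE 0.57, limma adjusted p = 0.0184; adjusted p up to 0.0804 with a library left out). In both genes the groups did not overlap, and the spread lay in control replicate 1.

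ATF4, the central transcription factor of the pathway, had 241, 105 and 76.3 FPKM in control and 312, 316 and 221 FPKM in PA+BMS, so that PA+BMS replicate 3 overlapped control replicate 1, and the change of 1.16 (SE 0.39) did not pass the test (adjusted p = 0.0960). CEBPG, a partner of ATF4, had 8.91, 6.22 and 5.90 FPKM in control and 16.7, 16.5 and 18.3 FPKM in PA+BMS, a log2 change of 1.20 (SE 0.15, adjusted p = 0.00403). TRIB3, a stress pseudokinase that restrains ATF4, rose from 78.8, 42.3 and 50.9 FPKM to 187, 176 and 133 FPKM (log2 change 1.54, SE 0.24, adjusted p = 0.00845; 0.0504 without control replicate 3). PPP1R15A, which brings a phosphatase to eIF2-alpha, rose from 30.5, 15.0 and 14.7 FPKM to 75.3, 72.9 and 53.02 FPKM (log2 change 1.76, SE 0.28). STC2, a secreted glycoprotein, rose by 1.85. CHAC1, which breaks down glutathione, and the stress cytokine GDF15, both singled out after their values were seen, had log2 changes of 2.83 and 1.30 that did not pass (adjusted p = 0.0603 and 0.0821). CHAC1 stood at 33.4, 3.38 and 2.04 FPKM in the controls and at 63.5, 61.4 and 40.3 FPKM in PA+BMS.

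ATF4 with C/EBP partners binds a composite element, searched here as TGATGNAA, and CREB and ATF factors bind TGACGTCA. RefSeq promoters on GRCh38.p14, of 300 bases that end just after the start of the gene, were matched for 24 of the 28 members and read on both strands. TGATGNAA was in 5 of them (ATF3, CHAC1, FGF21, ASNS and SLC3A2), of which 3 were called, and in 3.62% of 35116 promoters. TGACGTCA was in 1 (PPP1R15A) and in 1.85% of all. The list was made of genes known for this response, so these shares describe the list and not the change. A match is a string of letters and not a measured binding site. The promoters of ATF3 (chromosome 1, 212565157 to 212565456), CHAC1 (chromosome 15, 40953221 to 40953520) and PPP1R15A (chromosome 19, 48872171 to 48872470), all on the plus strand, are shown because they hold such a match near a start. Capitals mark TGATGNAA on either strand in the first pair and TGACGTCA in PPP1R15A.
ATF3: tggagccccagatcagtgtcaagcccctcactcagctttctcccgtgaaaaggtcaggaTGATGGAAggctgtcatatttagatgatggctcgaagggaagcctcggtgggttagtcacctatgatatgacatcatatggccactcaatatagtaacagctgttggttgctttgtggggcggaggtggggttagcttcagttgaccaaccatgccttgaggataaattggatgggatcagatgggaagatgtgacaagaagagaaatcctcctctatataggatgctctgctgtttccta
CHAC1: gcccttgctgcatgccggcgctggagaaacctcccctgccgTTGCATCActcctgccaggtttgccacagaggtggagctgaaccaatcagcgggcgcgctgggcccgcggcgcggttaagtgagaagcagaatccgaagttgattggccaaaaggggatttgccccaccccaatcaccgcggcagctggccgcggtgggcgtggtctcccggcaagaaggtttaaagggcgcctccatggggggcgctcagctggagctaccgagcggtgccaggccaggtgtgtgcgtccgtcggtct
PPP1R15A: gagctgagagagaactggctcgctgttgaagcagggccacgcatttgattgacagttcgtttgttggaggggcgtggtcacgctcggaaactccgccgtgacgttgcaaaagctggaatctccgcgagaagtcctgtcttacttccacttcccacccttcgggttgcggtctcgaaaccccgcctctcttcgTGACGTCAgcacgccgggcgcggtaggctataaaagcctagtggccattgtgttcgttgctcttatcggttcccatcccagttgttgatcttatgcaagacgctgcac

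Amino acid genes that ATF4 is known to induce changed in part. Of 17 enzymes of serine, asparagine, proline and folate metabolism, 6 rose and 1 fell (35.3% and 5.88%, against 4.33% and 6.70% of all genes), and their median was 0.14. With a library left out the rises numbered 0 to 8, with 8 without PA+BMS replicate 3. GPT2, mitochondrial alanine aminotransferase, went from 12.6, 7.15 and 8.36 FPKM to 20.8, 20.3 and 18.5 FPKM, a log2 change of 1.04 (SE 0.18, adjusted p = 0.0134). ASNS, asparagine synthetase, rose by 0.72, the mitochondrial folate enzyme MTHFD2 by 0.62 and the serine phosphatase PSPH, singled out later, by 0.88. PYCR3, a proline synthesis enzyme, fell by 0.72 on the log2 scale. Of 15 plasma membrane amino acid transporters, 3 rose (20.0%) and 1 fell (6.67%), and 4 rose and 1 fell without PA+BMS replicate 3. SLC1A4, a neutral amino acid carrier, rose from 15.7, 11.9 and 13.6 FPKM to 33.7, 32.8 and 34.1 FPKM (log2 change 1.23, SE 0.12, adjusted p = 0.00150). SLC7A11, the cystine importer, stood at 17.3, 14.6 and 32.8 FPKM in PA+BMS against 9.19, 8.85 and 7.77 FPKM in control, and its log2 change of 1.15 was 0.82 without PA+BMS replicate 3. Of 20 aminoacyl-tRNA synthetases 0 rose and 1 fell (5%), and the counts were the same without PA+BMS replicate 3. With all libraries the fall was the tryptophan enzyme WARS, by 0.61 on the log2 scale.

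Immediate early genes, which need no new protein to be induced, made up a further group of rises. Of 21 tested, 13 rose (61.9% against 4.33% of all genes) and 0 fell, with a median of 0.82 against -0.02. With a library left out, 9 to 15 rose, and 15 did so without PA+BMS replicate 3. ATF3 belongs to this list as well as to the integrated stress response. KLF6, a Krüppel-like factor, went from 4.13, 4.37 and 3.64 FPKM to 11.6, 12.4 and 15.0 FPKM, a log2 change of 1.46 (SE 0.13, adjusted p = 0.00128; 1.36 without PA+BMS replicate 3). Against palmitate alone, the differences of JUN and EGR1 did not pass the test on the values as deposited. JUN stood at 45.7, 50.6 and 43.8 FPKM in PA, a difference of 0.17 (SE 0.10, adjusted p = 0.190), and EGR1 at 23.1, 25.8 and 25.1 FPKM, a difference of -0.003 (SE 0.09, adjusted p = 0.976). Both differences depended on the processing, since with the GC and length trend removed JUN and EGR1 were above PA by 0.62 and 0.42 (adjusted p = 0.00490 and 0.0143). KLF2 was lower than in PA by 0.68 (adjusted p = 0.00813), and by 0.04 with the trend removed (adjusted p = 0.831).

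The serum response factor binds the CArG box, a motif with a pair of C bases, 6 A or T bases and a pair of G bases. It was in 1 of 16 matched promoters of immediate early genes, that of EGR1, and in 1.29% of all promoters. Such a share describes the list and not the change. The EGR1 promoter (chromosome 5, 138465229 to 138465528, plus strand) is shown for its 2 boxes, which are in capitals, before the start of a gene that rose in all 3 PA+BMS libraries.
EGR1: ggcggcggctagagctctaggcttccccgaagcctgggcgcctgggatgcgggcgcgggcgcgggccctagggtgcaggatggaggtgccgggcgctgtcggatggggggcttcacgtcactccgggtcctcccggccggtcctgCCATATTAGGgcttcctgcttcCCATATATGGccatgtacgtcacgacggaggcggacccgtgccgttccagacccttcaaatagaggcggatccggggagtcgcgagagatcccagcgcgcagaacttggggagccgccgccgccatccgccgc

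Some feedback genes of MAP kinase signalling rose. Of 12 tested, 6 rose (50.0%) and 1 fell (8.33%), against 4.33% and 6.70% of all genes, with a median of 0.61. With control replicate 3 left out 3 rose, and without PA+BMS replicate 3 again 6 rose and 1 fell. PHLDA1, a pleckstrin homology protein, went from 2.88, 1.997 and 2.21 FPKM to 7.52, 7.75 and 8.56 FPKM (log2 change 1.42, SE 0.13, adjusted p = 0.00133). The MAP kinase phosphatases DUSP5 and DUSP8 rose by 1.30 and 1.24 (SE 0.17 and 0.13), and SPRED2, an inhibitor of RAF activation, rose by 0.72. The fall was in DUSP7, a phosphatase of ERK singled out after its values were seen, from 7.03, 8.52 and 9.14 FPKM to 5.16, 4.89 and 5.90 FPKM (log2 change -0.54, adjusted p = 0.0327).

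**Figure D3:**
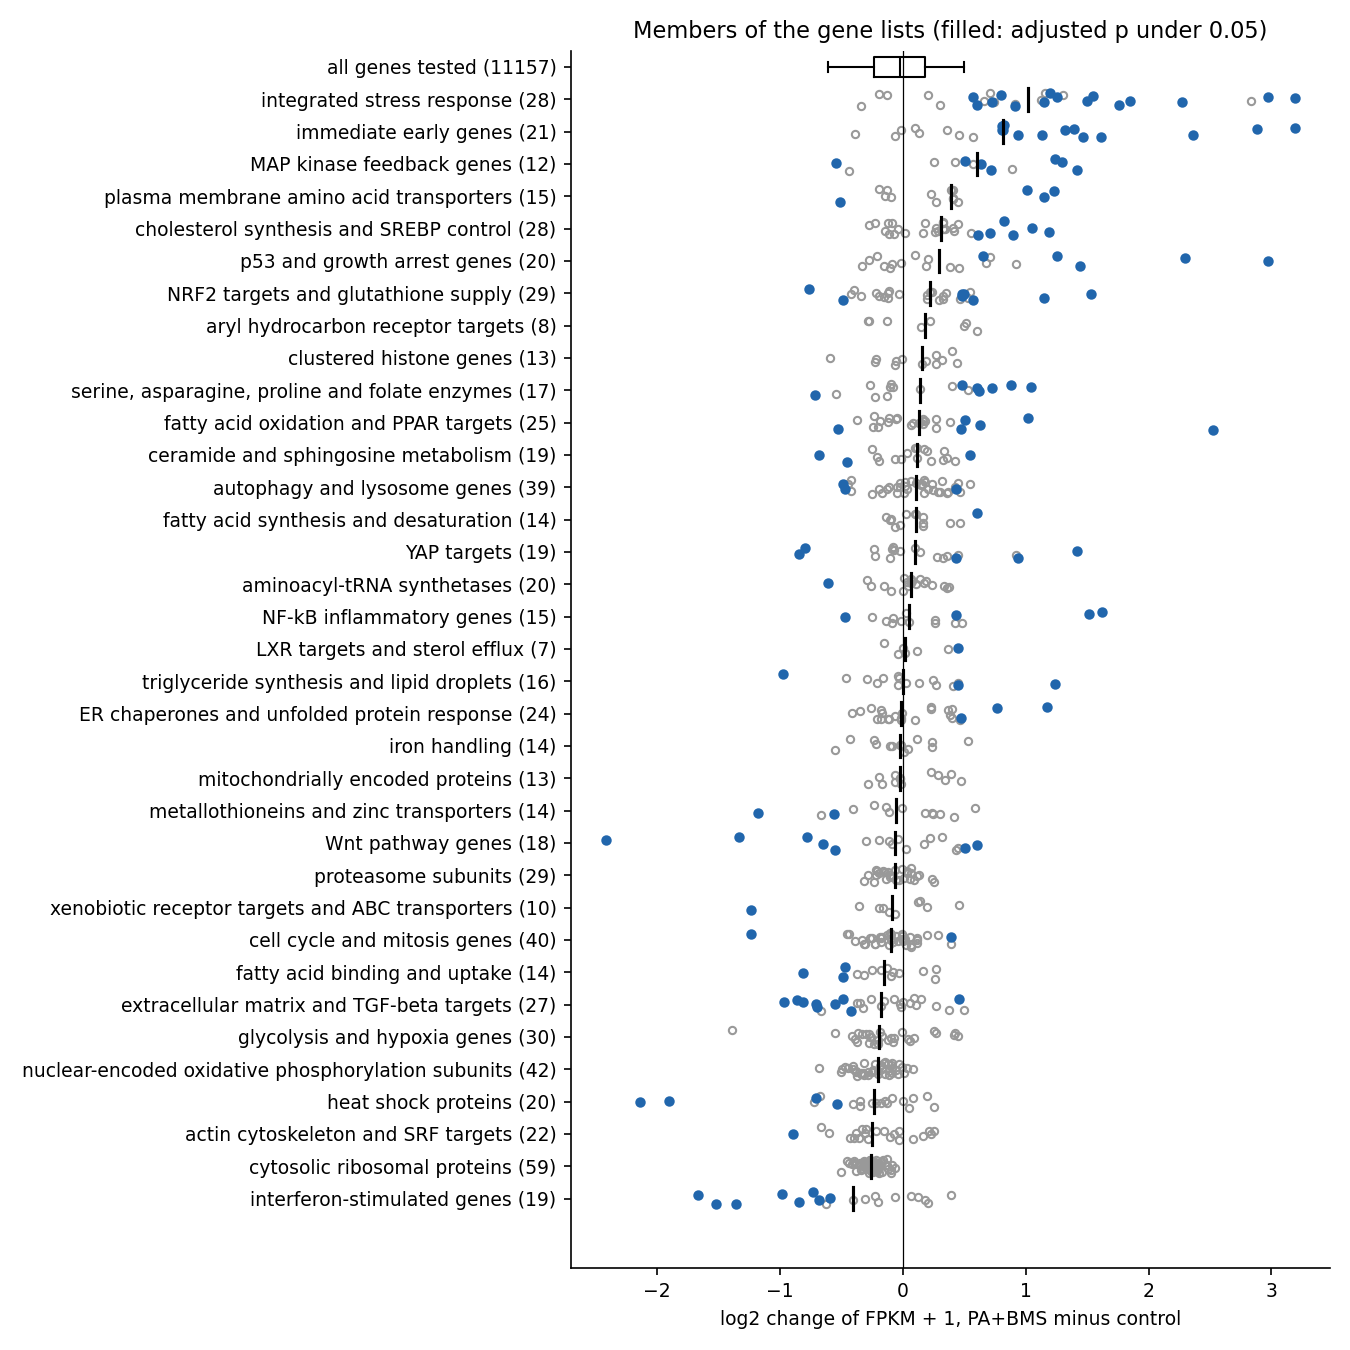
Log2 change of FPKM + 1 in PA+BMS against control (horizontal axis) for the tested members of each gene list (number in brackets); each circle is a gene, filled where the adjusted p was under 0.05, and vertical bars are list medians. The box at the top is the middle 50% of all 11157 genes with whiskers from the 5th to the 95th percentile; integrated stress response (median 1.02) and immediate early genes (0.82) lie at the upper end and interferon-stimulated genes (-0.40) at the lower end.

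Several interferon-stimulated genes fell. Of 19 tested, 0 rose and 8 fell (42.1% against 6.70% of all genes), and their median was -0.40, or -0.28 without control replicate 1. With a library left out 3 to 8 fell, and without PA+BMS replicate 3, 7 fell and 1 rose. The 8 falls with all libraries include ISG20, which passed the filter through 1 group alone. OASL, an antiviral protein (ENSG00000135114, chromosome 12, 121019111 to 121039242), went from 56.2, 52.9 and 50.3 FPKM to 17.3, 15.9 and 14.8 FPKM, a log2 change of -1.67 (SE 0.10, limma adjusted p = 0.000593; -1.62 without PA+BMS replicate 3). ISG15, a ubiquitin-like modifier (ENSG00000187608), stood at 323, 276 and 240 FPKM in control and at 114, 102 and 75.8 FPKM in PA+BMS (log2 change -1.52, SE 0.18, adjusted p = 0.00355; -1.36 without PA+BMS replicate 3). In PA the levels were 78.8, 68.6 and 65.1 FPKM for OASL and 372, 402 and 348 FPKM for ISG15. PA+BMS lay below PA by 2.07 and 1.95 on the log2 scale for OASL and ISG15 (SE 0.11 and 0.16, adjusted p = 0.000392 and 0.00149).

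IFIT1, which binds viral RNA, had another order of values. It stood at 6.77, 10.2 and 10.9 FPKM in control, 4.53, 3.48 and 3.53 FPKM in PA and 2.36, 2.94 and 3.63 FPKM in PA+BMS. Its log2 change against control was -1.36 (SE 0.19, adjusted p = 0.00599), and the difference from PA of -0.29 (SE 0.15) did not pass the test (adjusted p = 0.123; -0.70 and 0.0113 after removal of the GC and length trend). IFIT3, IFIT2 and the RNA sensor DDX58, singled out after their values were seen, fell by 0.98, 0.84 and 0.73 on the log2 scale against control. ISG20, an RNA exonuclease, had 1.37, 1.14 and 1.17 FPKM in control, 1.76, 1.78 and 1.81 FPKM in PA and 0.488, 0.371 and 0.315 FPKM in PA+BMS. It was tested because the controls were above 1 FPKM, and its log2 difference from control was -0.68 (SE 0.12).

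The interferon-stimulated response element, the DNA motif through which type I interferon induces many of its genes, was searched on both strands. It was in 10 of 14 matched members (IFIT1, IFIT3, IFIT5, ISG15, ISG20, OAS3, IFI6, IFI44, IFIH1 and BST2), of which 5 fell, and in 3.57% of all promoters. Members were put on the list as genes known to respond to interferon, so this share describes the list and not the change. The promoters of ISG15 (chromosome 1, 1013247 to 1013546), IFIT1 (chromosome 10, 89392373 to 89392672) and IFIT3 (chromosome 10, 89327747 to 89328046), all on the plus strand, are shown as 3 falling members with the element, which is in capitals; in ISG15 the 2 matches overlap.
ISG15: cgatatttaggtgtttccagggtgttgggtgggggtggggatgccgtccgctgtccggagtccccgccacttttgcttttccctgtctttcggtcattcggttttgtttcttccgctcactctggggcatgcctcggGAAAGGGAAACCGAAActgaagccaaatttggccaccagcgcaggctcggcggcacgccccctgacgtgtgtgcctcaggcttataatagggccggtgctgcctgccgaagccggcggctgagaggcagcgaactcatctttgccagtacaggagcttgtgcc
IFIT1: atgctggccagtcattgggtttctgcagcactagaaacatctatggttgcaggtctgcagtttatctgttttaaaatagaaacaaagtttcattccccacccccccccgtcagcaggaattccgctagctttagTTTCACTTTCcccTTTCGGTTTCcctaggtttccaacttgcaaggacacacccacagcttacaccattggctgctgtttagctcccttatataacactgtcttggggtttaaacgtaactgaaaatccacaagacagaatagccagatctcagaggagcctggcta
IFIT3: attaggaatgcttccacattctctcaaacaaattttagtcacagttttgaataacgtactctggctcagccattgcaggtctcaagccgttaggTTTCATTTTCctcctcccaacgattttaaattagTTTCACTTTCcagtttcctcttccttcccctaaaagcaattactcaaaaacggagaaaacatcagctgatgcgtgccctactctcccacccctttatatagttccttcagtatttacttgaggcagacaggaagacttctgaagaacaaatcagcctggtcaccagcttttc

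Cholesterol genes rose in part. The shares of all genes were 4.33% for rises and 6.70% for falls, or 5.73% and 8.65% without PA+BMS replicate 3. Of 28 genes of cholesterol synthesis and its control by SREBP factors, 6 rose and 0 fell (21.4%; 7 and 0 without PA+BMS replicate 3, and 3 to 7 rises with a library left out), and the median was 0.31. INSIG1, the sterol-regulated anchor of the SREBP machinery in the endoplasmic reticulum, stood at 44.5, 44.3 and 44.9 FPKM in control, 59.9, 62.1 and 60.0 FPKM in PA and 93.2, 94.6 and 92.4 FPKM in PA+BMS. The 3 groups did not overlap, and INSIG1 rose by 1.05 against control (SE 0.09, limma adjusted p = 0.00133) and by 0.61 against PA (SE 0.09, adjusted p = 0.00285). IDI1, an isomerase of the mevalonate pathway, had 15.1, 17.8 and 16.9 FPKM in control, 16.2, 18.9 and 15.0 FPKM in PA and 31.2, 31.9 and 32.0 FPKM in PA+BMS. It rose by 0.89 against control (SE 0.10, adjusted p = 0.00262) and by 0.89 against PA (SE 0.10, adjusted p = 0.00279). The sterol oxidase MSMO1 rose by 0.61, and MVK, mevalonate kinase, singled out later, by 0.82. HMGCS1, an early enzyme of the pathway, had a change of 0.33 (SE 0.19) that did not pass (adjusted p = 0.302).

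Among fatty acid genes, the changes lay in a few members. Of 25 fatty acid oxidation genes and PPAR targets, 5 rose (20.0%) and 1 fell (4%), against 4.33% and 6.70% of all genes, with a median of 0.13. Leaving out PA+BMS replicate 3 gave 6 rises and 1 fall, and without any single control 1 rose. Besides ANGPTL4 they included PDK4, which restrains pyruvate oxidation, at 25.2, 26.5 and 22.1 FPKM in control and 43.3, 43.1 and 69.7 FPKM in PA+BMS. PA+BMS replicate 3 was the highest, and the log2 change of PDK4 was 1.02 (SE 0.19, adjusted p = 0.0168) with it and 0.79 without. CPT1A, which admits fatty acids to mitochondria, went from 28.98, 25.8 and 30.6 FPKM to 40.9, 42.0 and 50.6 FPKM (log2 change 0.62, SE 0.12, adjusted p = 0.0191; 0.53 without PA+BMS replicate 3). The differences of PDK4 and CPT1A from PA, 0.39 and 0.22, did not pass (adjusted p = 0.111 and 0.125). RXRA, the partner of PPAR receptors, fell by 0.53 on the log2 scale. PPARG and PPARA had changes of 0.17 and 0.27 (adjusted p = 0.338 and 0.170).

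Of 16 genes of triglyceride synthesis and lipid droplets, 2 rose (12.5% against 4.33% of all genes) and 1 fell (6.25% against 6.70%). The counts were the same without PA+BMS replicate 3. LPIN1, a phosphatidate phosphatase on the path to triglyceride, stood at 2.29, 2.10 and 2.16 FPKM in control, 3.11, 2.95 and 3.21 FPKM in PA and 6.02, 6.08 and 7.48 FPKM in PA+BMS. It rose by 1.24 against control (SE 0.12, limma adjusted p = 0.00148) and by 0.87 against PA (SE 0.11, adjusted p = 0.00284). MGLL, monoglyceride lipase, had 7.43, 6.33 and 7.08 FPKM in control, 8.89, 7.20 and 6.85 FPKM in PA and 2.81, 2.94 and 3.39 FPKM in PA+BMS. It fell by 0.97 against control (SE 0.11, adjusted p = 0.00284) and by 1.09 against PA (SE 0.12, adjusted p = 0.00279), and it overlaps SEC61A1 in the annotation. FITM2, of droplet formation, rose by 0.45. Of 14 genes of fatty acid synthesis and desaturation 1 rose (7.14%), and 1 rose without PA+BMS replicate 3. With all libraries this was ACACB, a mitochondrial acetyl-CoA carboxylase, by 0.60. ACACB passed the filter through 1 group alone, so this call carries no weight. SCD, the main desaturase, had a change of 0.38 (limma adjusted p = 0.131).

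FABP4, whose lipid pocket BMS-309403 occupies, was barely counted. It had no read in the 3 controls and in PA+BMS replicates 1 and 3, and 0.0315 FPKM in PA+BMS replicate 2, where 3 reads would be worth up to 0.129 FPKM. FABP1, the liver form, had no read, which allows up to 0.0729 FPKM. The transporter CD36 ranged from 0.0567 to 0.182 FPKM, PLIN2, a droplet coat protein, at 0.0173 FPKM or less, and ACTA2, smooth muscle actin, between 0.547 and 1.03 FPKM, so that none of these 5 genes was tested. The forms present were FABP3, at 21.9, 21.3 and 23.6 FPKM in control and 18.5, 16.9 and 15.5 FPKM in PA+BMS, and FABP5, at 11.3, 13.3 and 13.6 FPKM and 9.98, 10.9 and 10.7 FPKM. Both were lower in all 3 PA+BMS libraries than in every control, as were 19.7% of all genes. Neither change passed the limma test (FABP3 -0.38, SE 0.11, adjusted p = 0.0599, and FABP5 -0.25, SE 0.11, adjusted p = 0.178). Whether the compound bound either form was not measured. Against PA, FABP3 was lower by 0.46 (SE 0.10, adjusted p = 0.00904) and, once the GC and length trend was taken out, by 0.26 (adjusted p = 0.106). For fatty acid uptake and binding, 14 genes were tested, of which 0 rose and 3 fell, or 21.4% against 6.70% of all genes. Without PA+BMS replicate 3, 0 rose and 4 fell. The 3 falls were ACSL5, an acyl-CoA synthetase, by 0.81, the transporter SLC27A2, by 0.49, and CAV1, of caveolae, by 0.47 on the log2 scale. ACSL5 was also below PA, by 0.88 (SE 0.12, adjusted p = 0.00285).

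TXNIP, a glucose-responsive inhibitor of thioredoxin, set PA+BMS apart from PA more than from control. It stood at 3.68, 3.96 and 4.62 FPKM in control, 1.57, 1.23 and 1.52 FPKM in PA and 5.78, 6.33 and 5.21 FPKM in PA+BMS. PA+BMS was above PA by 1.47 (SE 0.11, limma adjusted p = 0.00138), whereas the change of 0.41 against control (SE 0.12) did not pass (adjusted p = 0.0639; 0.47 and 0.0284 without PA+BMS replicate 3). Over all genes, limma called 59.4% in PA+BMS against PA, so a call in that comparison was common, and GC content and length accounted for 58.1% of the variance of its log2 changes. That comparison called 27.5% upward and 31.9% downward, and with the trend removed it called 25.6%, of which 10.1% of all genes were upward and 15.5% downward.

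Keratins and other epithelial genes were lower in PA+BMS. KRT7, a keratin of simple epithelia and bile ducts (ENSG00000135480, chromosome 12, 52232520 to 52252186), went from 563, 479 and 476 FPKM to 184, 179 and 139 FPKM, a log2 change of -1.60 (SE 0.16, limma adjusted p = 0.00181; -1.47 without PA+BMS replicate 3), and overlaps KRT7-AS and KRT86. Of 11 bile duct or progenitor markers 4 were tested and 4 fell, among them CD24 and MUC1, where 6.70% of all genes fell. The other 7, KRT19, EPCAM and SOX9 among them, lay under 1 FPKM in all 6 libraries, and SPP1 had no read. SOX9, not tested, stood at 0.641, 0.571 and 0.563 FPKM in PA+BMS against 0.496, 0.359 and 0.503 FPKM in control. The summed level of the 11 markers was 539 to 620 FPKM in control, 604 to 702 FPKM in PA and 172 to 213 FPKM in PA+BMS. KRT7 made up most of that sum in each library. Of 7 epithelial markers 3 were tested and 3 fell, and the other 4, CDH1 and EPCAM among them, lay under 1 FPKM in all 6 libraries. KRT8 stood at 265, 210 and 283 FPKM in control and 133, 125 and 133 FPKM in PA+BMS, and its partner KRT18 at 222, 182 and 233 FPKM and 109, 96.5 and 98.2 FPKM. CLDN7, a tight junction protein, fell by 1.42 (SE 0.11, adjusted p = 0.00108) and the mucin MUC1 by 1.02 (SE 0.11, adjusted p = 0.00254). KRT7, KRT8, KRT18, CLDN7 and MUC1 were also below PA, by 1.88, 1.19, 1.33, 1.77 and 1.06 on the values as deposited, where 31.9% of all genes were called below PA. CD24 stood at 46.8, 54.6 and 52.9 FPKM in control, 30.4, 24.5 and 25.2 FPKM in PA and 23.3, 25.7 and 27.8 FPKM in PA+BMS, and PA+BMS did not differ from PA beyond the error (-0.06, SE 0.12, adjusted p = 0.689). In bulk RNA, fewer cells of a type and less RNA per cell cannot be told apart. Markers of other cells were scarce. Of 3 stellate or fibroblast markers tested, PDGFRB, at 3.38 FPKM or less in the controls, fell by 0.78 on the log2 scale, while COL1A1 and LUM had changes of -0.07 and -0.49 that did not pass (adjusted p = 0.655 and 0.0783). CSF1R of macrophages and CDH5 of endothelium, the single tested marker of each, stood at no more than 2.19 and 1.66 FPKM in the controls and were tested through the controls alone (log2 differences of -0.83 and -0.82).

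**Figure D4:**
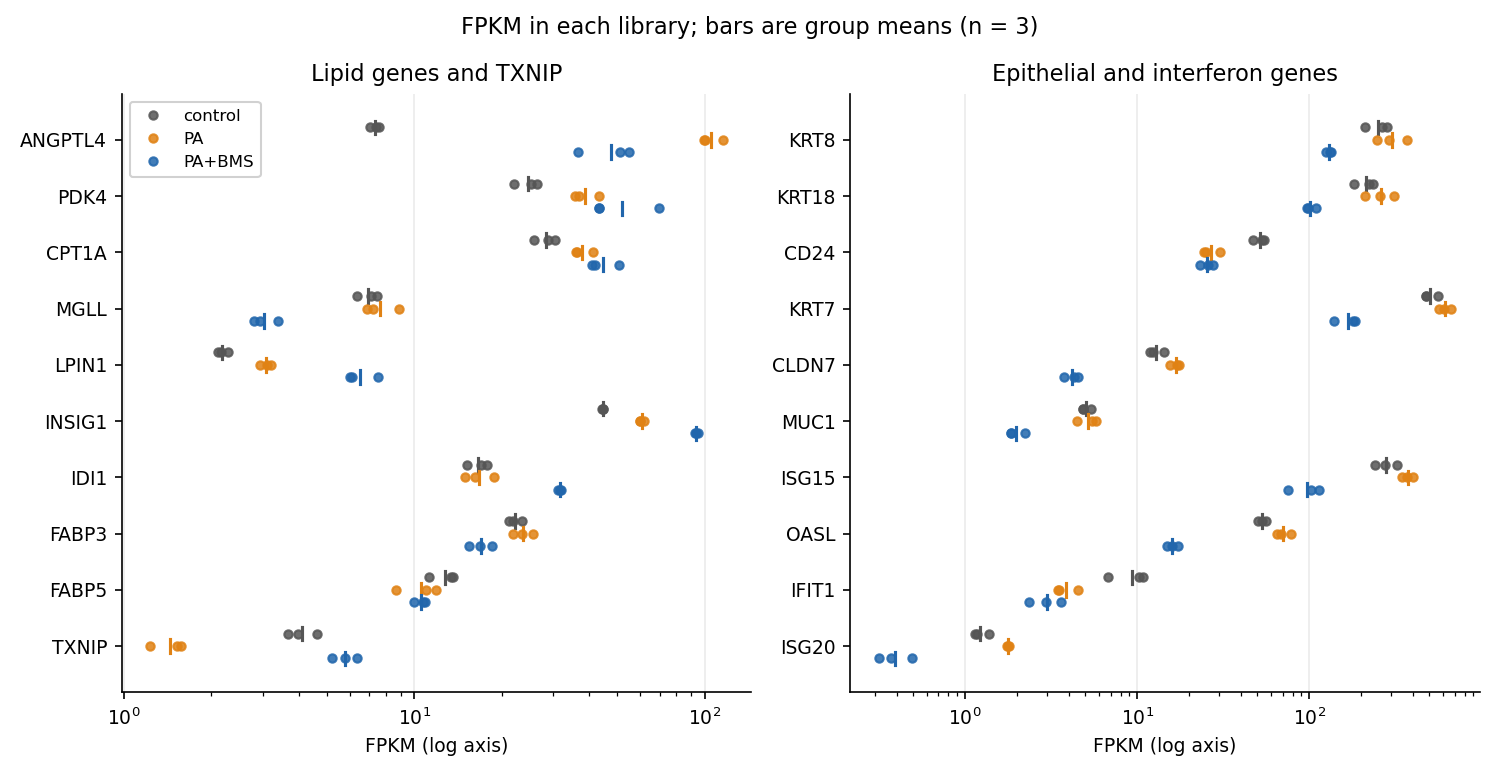
FPKM on a log axis for lipid genes and TXNIP (left) and for epithelial and interferon genes (right) in control, PA and PA+BMS; each point is a library and vertical bars are group means (n = 3). PA+BMS lies above control and PA for INSIG1, IDI1 and LPIN1, below both for MGLL, KRT7, CLDN7, MUC1, ISG15, OASL and ISG20, and between them for ANGPTL4.

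Some matrix and Wnt genes fell. Among all genes 6.70% fell and 4.33% rose. Of 27 extracellular matrix genes and TGF-beta targets, 1 rose and 8 fell (29.6%; 1 and 10 without PA+BMS replicate 3, 4 to 10 falls with a library left out). FN1, fibronectin, went from 3.76, 4.28 and 3.54 FPKM to 1.32, 1.65 and 1.505 FPKM, a log2 change of -0.96 (SE 0.12, adjusted p = 0.00334). Its level in PA was 2.99, 2.87 and 3.28 FPKM, from which PA+BMS differed by -0.70 (SE 0.11, adjusted p = 0.00329). The laminin chain LAMA5 and the collagens COL4A1 and COL5A1 fell by 0.86, 0.81 and 0.70 on the log2 scale. COL1A1, the main fibrillar collagen, and TGFB1 had changes of -0.07 and -0.15 (SE 0.09 and 0.11) that did not pass, and that of COL1A1 turned positive with library totals set equal. The single rise was TGFBR2, a TGF-beta receptor chain, by 0.46, singled out later (adjusted p = 0.0465; the call was lost with any library left out, with an adjusted p of 0.0501 without PA+BMS replicate 3). Of 18 Wnt pathway genes 2 rose and 5 fell (11.1% and 27.8%; 2 and 6 without PA+BMS replicate 3). Without any single control 0 rose and 3 or 4 fell. The falls included DKK1, the ligands WNT7B and WNT5A at -1.34 and -0.65 and the receptor FZD2 at -0.78. Of 19 YAP targets 3 rose and 2 fell (15.8% and 10.5%). With PA+BMS replicate 3 left out 4 rose and 2 fell, and without control replicate 2 or control replicate 3, 0 rose. As deposited the called genes included the matricellular proteins CYR61 and CTGF, with log2 changes of 1.42 and 0.93, and FJX1 and the coagulation factor receptor F3, with -0.84 and -0.79.

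A few heat shock genes fell. Of 20 tested, 0 rose and 4 fell (20.0%), where 4.33% of all genes rose and 6.70% fell. With a library left out 0 to 5 fell, and without PA+BMS replicate 3 again 4 fell. HSPA1A and HSPA1B, near-identical copies that encode inducible Hsp70 and may share reads, had 65.1, 212 and 195 FPKM and 39.7, 130 and 147 FPKM in the controls. In PA+BMS they had 34.8, 29.7 and 28.6 FPKM and 24.6, 22.1 and 24.3 FPKM, below every control, with log2 changes of -2.14 and -1.91 (SE 0.40 and 0.43, limma adjusted p = 0.0169 and 0.0314). Control replicate 1 was the lowest control for both. HSPA8, the constitutive form, fell by 0.71 and HSPE1, of the mitochondrial chaperonin, by 0.54 on the log2 scale. Of 24 ER chaperones and unfolded protein response genes 3 rose (12.5%) and 0 fell. With a library left out 1 to 4 rose, and without PA+BMS replicate 3, 4 rose and 0 fell. With all libraries the rises were XBP1, a transcription factor of that response, by 0.77, HERPUD1, of ER-associated degradation, by 1.17 and the ligase SYVN1 by 0.47. HSPA5, the main ER chaperone, stood at 128, 149 and 162 FPKM in control and 184, 200 and 193 FPKM in PA+BMS, a change of 0.40 (SE 0.13) that did not pass (adjusted p = 0.0866).

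Some genes of growth arrest and cell death were among the rises. Over all genes 4.33% rose and 6.70% fell. Of 20 p53 and growth arrest genes 5 rose and 0 fell, among them GADD45A, a growth arrest protein, from 8.99, 7.84 and 5.11 FPKM to 42.2, 49.1 and 28.7 FPKM (log2 change 2.30, SE 0.24, adjusted p = 0.00216), and the death-promoting BH3 proteins PMAIP1 and BBC3, by 1.44 and 1.26. With a library left out 2 to 9 of the p53 genes rose, and without PA+BMS replicate 3, 9 rose and 1 fell. Of 29 NRF2 targets 6 rose and 2 fell (20.7% and 6.90%). Without PA+BMS replicate 3, 8 rose and 1 fell, and without control replicate 1, 2 or 3 the rises numbered 2, 1 and 2. They were led by OSGIN1, an oxidative stress protein, at 1.53, and the falls by the reductase AKR1C1, which has close paralogs, at -0.77. Of 15 NF-kB genes 3 rose (20.0%) and 1 fell (6.67%). The counts were 4 and 1 without PA+BMS replicate 3, and 1 and 0 without control replicate 1. CXCL8, 1 of the 3 rises, passed the filter through 1 group alone. CXCL2, a chemokine, stood at 7.02, 8.42 and 2.18 FPKM in PA+BMS against 1.13, 1.36 and 1.04 FPKM in control, and its log2 change was 1.52 with PA+BMS replicate 3 and 2.001 without it. Of 40 cell cycle genes 1 rose and 1 fell (2.5% each), and 1 rose and 2 fell without PA+BMS replicate 3. With all libraries the fall was CCND1, cyclin D1, from 54.3, 72.9 and 88.9 FPKM to 23.6, 26.2 and 41.0 FPKM (log2 change -1.24, limma adjusted p = 0.0189). Of 14 metallothionein and zinc transporter genes 0 rose and 2 fell (14.3%), and 1 rose and 2 fell without PA+BMS replicate 3. With all libraries the falls were the zinc importer SLC39A10, by 1.18, and MT1X, by 0.56 on the log2 scale. MT1X passed the filter through 1 group alone. Of 19 ceramide and sphingosine genes 1 rose (5.26%) and 2 fell (10.5%), and the counts were the same without PA+BMS replicate 3. With all libraries UGCG, glucosylceramide synthase, rose by 0.55, and the sphingosine kinases SPHK1 and SPHK2 fell by 0.68 and 0.45 on the log2 scale. SLC51B, a bile acid exporter subunit, was the single call among 10 xenobiotic receptor targets and transporters with all libraries, and it fell by 1.23. Without PA+BMS replicate 3, 1 of these genes rose and 2 fell.

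The remaining lists gave few or no calls at this spread, where 4.33% of all genes rose and 6.70% fell. Of 59 cytosolic ribosomal protein genes 0 rose and 0 fell, with a median of -0.26 that was -0.08 without PA+BMS replicate 3, and of 42 nuclear-encoded oxidative phosphorylation genes 0 rose and 0 fell, with a median of -0.20 and of -0.07 without it. Of 13 mitochondrially encoded genes, 29 proteasome subunits, 30 glycolysis and hypoxia genes, 13 clustered histone genes, 14 iron genes and 8 aryl hydrocarbon receptor targets 0 rose and 0 fell. Without PA+BMS replicate 3, 1 rose in each of the glycolysis, iron and aryl hydrocarbon receptor lists. Of 39 autophagy and lysosome genes 1 rose (2.56%) and 2 fell (5.13%), and 5 rose and 2 fell without PA+BMS replicate 3. Of 22 actin and SRF targets 0 rose and 1 fell (4.55%), and 0 rose and 2 fell without that library. With all libraries the fall was TAGLN, of smooth muscle actin filaments, by 0.89 on the log2 scale. Of 7 LXR targets 1 rose (14.3%), and 2 rose without PA+BMS replicate 3. MT-ND6, an encoded subunit of complex I, stood at 784, 758 and 1794 FPKM in PA+BMS and at 747, 796 and 792 FPKM in control, so that PA+BMS replicate 3 alone was high.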

How the data were processed

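RNA from wild-type HepaRG cells was selected for poly(A) and sequenced as read pairs, per the labels. HISAT2 2.0.5, featureCounts 1.5.0-p3 and CASAVA are named, without roles, per the submitters' processing notes. No strand setting was given. The deposited values are FPKM per gene, on GENCODE 29 gene models of GRCh38, which all 58735 genes matched by identifier and coordinates. At a tolerance of 0.001 the FPKM steps gave whole reads for 100.0% of values in each library.

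Genes that reached 1 FPKM in 3 or more of the 6 libraries were tested with limma 3.58.1 (R 4.3.3) on log2(FPKM + 1), with a trended prior, two-sided, with Benjamini-Hochberg adjustment over all tested genes and a threshold of 0.05. The main fit held control and PA+BMS, and a separate 6-library fit compared PA+BMS with PA over the same genes. Changes of low genes are understated by this log2(FPKM + 1) scale. The fits were tested on simulated data. GC and length trends were removed with splines of 5 degrees of freedom as an alternative. Other alternatives were the pseudocount, filter, scaling, array weights, a replicate block, voom on recovered reads and leaving out each library.

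Named genes were the 12 largest rises and 12 largest falls among called protein-coding genes without overlap of groups, the 4 members with the smallest p of each list of 5 or more tested genes, and 26 set genes; others are marked as singled out later. The PA+BMS values against PA were given for some leading genes and for genes picked after values were seen. Unless the GC and length trend is said to be removed, they are on the values as deposited. The members and lists were chosen with earlier results of these data known. Some members of the lists are counted but not reported here by name.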

Additional observations from a re-analysis of the deposited data

How the results depend on the processing

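The number of genes called in PA+BMS against control depended on the processing. Against 1230 called, 483 up and 747 down, there were 560, 201 and 359 with no filter, 3888, 1609 and 2279 with array weights, and 2077, 866 and 1211 after removal of the GC and length trend. With control replicate 1 and PA+BMS replicate 3 both left out, a setting chosen after seeing the data, the counts were 2831, 1124 and 1707. A filter at 5 FPKM gave 276 rises. Genes of at least 2-fold, 175 as reported, numbered 362 with a pseudocount of 0.1 and 389 with voom on recovered reads, which called 1384 in all. With 1 library left out the calls ranged from 328 (without control replicate 3) to 1604 (without PA+BMS replicate 3), the rises from 98 to 639 and the falls from 230 to 965. Without control replicate 1, control replicate 2, PA+BMS replicate 1 and PA+BMS replicate 2, the calls were 643, 484, 604 and 454. Fewer libraries leave fewer degrees of freedom, and the cause of the larger counts was not tested.

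PA+BMS against PA gave 2856 calls with the GC and length trend removed, against 6630, and 3902 to 6764 with 1 library left out, the fewest without PA replicate 2. In that comparison SESN2 turned to 0.26 with the trend removed, EGR1 to 0.36 with library totals set equal, 0.26 with quantile normalization and 0.42 with the trend removed, and CD24 to 0.31 with totals set equal; the cause was not tested. With the replicate number as a block, 1827 genes were called, 709 up and 1118 down. The replicate numbers are not said to pair the samples, so the block was kept as an alternative. Deviations of same-numbered libraries correlated at 0.51, -0.24 and 0.42, and those of control replicate 1 and PA+BMS replicate 2 at 0.45. Deviations within a group of 3 libraries cancel out, so these values cannot decide whether the numbers pair the samples. With 3 libraries a group, genes near the 1 FPKM limit rest on few reads.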
